A study of Danio rerio with 8 samples.

Results

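Genes of Wnt signalling (ligands, receptors and their modulators) were examined in RNA sequencing of zebrafish (Danio rerio) larvae. The exposure was to TCDD, a chlorinated dioxin and persistent ligand of the aryl hydrocarbon receptor (AHR). The genes were taken by symbol, as the wnt, fzd, sfrp, dkk, rspo, axin and tcf7 genes together with lrp5, lrp6 and lef1. They numbered 61 of the 25725 genes listed, and the set was chosen with earlier results of these data known. The comparison had 4 samples exposed to TCDD and 4 samples kept in the solvent DMSO, both from 2 hours postfertilization and both taken at 5 days postfertilization. No strain, allele or transgene is named for either group, and neither the concentration of TCDD nor the number of larvae behind a sample was found in the labels. No label ties the samples to separate clutches. A p-value here therefore sets the difference between the groups only against the spread of these samples, which may be technical.

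Wnt proteins are secreted, lipid-modified ligands that bind Frizzled receptors. With the co-receptors Lrp5 and Lrp6 they stop a complex built on Axin from destroying beta-catenin, which then works with TCF/LEF factors on target genes, while other Wnt ligands act on cell polarity and movement without beta-catenin. R-spondins raise the amount of Frizzled at the cell surface, secreted Frizzled-related proteins (Sfrp) bind Wnt ligands, and Dickkopf proteins (Dkk) block the co-receptors. In the vertebrate heart the pathway is known for acting in opposite directions at successive stages of cardiac development. In zebrafish, rspo1 is also known as a gene induced by TCDD in the regenerating fin.

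Libraries held between 14048563 and 15183023 estimated counts. On library size alone, the smallest level taken as detected, 3 counts, was therefore 0.198 to 0.214 CPM (counts scaled to a common library total). Single-gene CPM rest on TMM-scaled sizes, on which 3 counts were 0.24 CPM in DMSO 1 (wnt7ba) and 0.193 CPM in TCDD 4 (sfrp2l). Such floors cover counting error only. The AHR target cyp1a averaged 7770 CPM in TCDD and 118 CPM in DMSO. In a principal component analysis DMSO 1 (59.9) and TCDD 2 (29) stood apart from the other 6 libraries (-25 to -0.2) on the second component, which held 28.5% of the variance. Although the tissue is given as heart, the 10 cardiomyocyte markers, none of which was at 0 in all libraries, summed to 1660 ± 240 CPM in TCDD and 1840 ± 118 CPM in DMSO (SD, n = 4 each), against 39400 ± 3190 and 41000 ± 9950 CPM for 12 liver markers. The values below therefore describe the sampled material and not heart cells alone. In such bulk RNA, fewer cells of a type and less RNA per cell cannot be told apart.

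Of the 61 Wnt genes 52 had enough counts to be tested. Among these, 6 rose and 4 fell in TCDD, and 42 did not pass a Benjamini-Hochberg adjusted p of 0.05 over all genes (edgeR's quasi-likelihood test, the source of every adjusted p below unless another is named). The called share was 19.2%, against 5.72% of all 20522 genes tested. Because the set was chosen with earlier results known, these shares are a description and were given no test. The rises (11.5% of the Wnt genes tested) compare with 2.99% of all genes, and the falls (7.69%) with 2.73%. The genes that rose were the ligand wnt5a, the receptors fzd9a and fzd1, the co-receptor lrp5 and the R-spondins rspo3 and rspo1. The genes that fell were the ligand wnt2 and 3 inhibitors of a single family, sfrp2, sfrp1b and sfrp5. The TCDD and DMSO libraries did not overlap for 12 of the 52 genes (23.1%), against 14.0% of all genes. In 6 of these (11.5% of the 52) TCDD lay above DMSO, against 7.61% of all genes. In 6 (11.5%) TCDD lay below DMSO, against 6.34%. All Wnt genes called were among those without overlap, so the share without overlap is not independent of the calls. The median log2 fold change of the 52 genes was -0.04, against 0.00 over all genes.

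**Figure D1:**
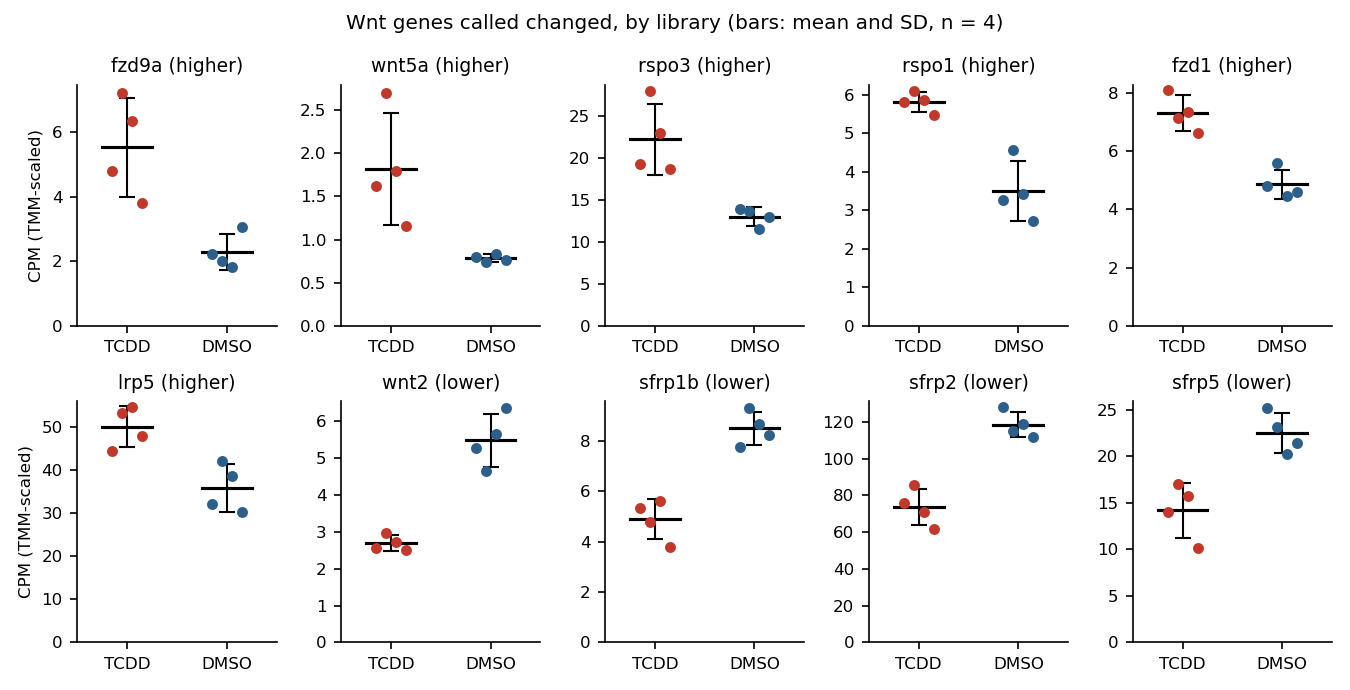
Each panel shows 1 of the 10 Wnt genes called changed, with CPM on TMM-scaled library sizes on the vertical axis, each point 1 library and the bars the mean and SD (n = 4). In every panel the TCDD libraries and the DMSO libraries do not overlap, and for lrp5 the nearest libraries are TCDD 1 at 44.4 CPM and DMSO 2 at 42.1 CPM.

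The 24 Wnt ligands covered a wide range of levels. Per transcript length, wnt11, a ligand best known for signalling without beta-catenin, led in both groups with 41.0 ± 4.77 TPM (a length-scaled measure, as deposited) in TCDD and 30.5 ± 2.86 TPM in DMSO (SD, n = 4 each). It made up 49.9 ± 2.53% of the summed TPM of all ligands in TCDD and 45.2 ± 1.84% in DMSO. Next came wnt5b, which drives cell movements during gastrulation, with 11.2 ± 0.978 and 9.42 ± 2.12 TPM in TCDD and DMSO, followed by wnt7aa at 7.73 ± 1.25 and 7.21 ± 1.94 TPM. The values of wnt5b and wnt7aa overlapped in DMSO but not in TCDD. The place of wnt7aa rests on a length of only 801.7 bases implied by its deposited values, which was not checked against an annotation. On CPM it averaged 5.2 in TCDD and 5.88 in DMSO, against 5.42 and 6 for wnt7bb. The other ligands were each under 5 TPM on average in either group. The deposited TPM values were shifted between the groups, with a median difference of 0.26 in log2(TPM + 0.5) over all genes tested. The DMSO libraries did not share it evenly. Summed TPM of the 61 Wnt genes was 362, 558, 453 and 424 in DMSO 1 to 4, against 505 to 572 in TCDD. TPM is therefore used here for levels between genes and CPM for differences between groups.

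Of the 17 ligands tested, wnt2 fell, wnt5a rose and 15 did not pass, where 2.73% of all genes tested fell and 2.99% rose. The gene wnt2 (NCBI gene 30127), which in the mouse acts through beta-catenin in lung and heart development, had 2.57, 2.98, 2.73 and 2.51 CPM in the TCDD libraries 1 to 4, against 5.27, 4.65, 5.66 and 6.36 CPM in the DMSO libraries 1 to 4. The lowest DMSO library lay well above the highest TCDD library. The log2 fold change was -1.02 ± 0.16 (SE, adjusted p = 0.0046), the largest fall among the Wnt genes tested, and its share of the ligands' summed TPM was 3.17 ± 0.152% in TCDD against 6.35 ± 0.983% in DMSO. It remained called without any 1 library, but not on log2(TPM + 0.5) (-0.61, adjusted p = 0.0537) or log2(TPM + 0.1) (-0.68, adjusted p = 0.0564), scales on which the median of all genes was 0.26 and 0.31.

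The gene wnt5a (NCBI gene 568191), whose product signals mainly without beta-catenin, had 1.62, 2.7, 1.8 and 1.16 CPM in TCDD 1 to 4, against 0.799, 0.741, 0.839 and 0.768 CPM in DMSO 1 to 4. These were 18 to 39 counts in each TCDD library and 10 to 12 counts in each DMSO library, and per length wnt5a was the least abundant of the 10 called genes in both groups (2.01 ± 0.664 TPM in TCDD and 0.712 ± 0.121 TPM in DMSO). Its log2 fold change was 1.2 ± 0.30, with an adjusted p of 0.037. The TCDD libraries differed among themselves by more than the DMSO libraries did, and TCDD 2 was the highest. The call was lost without any 1 library other than TCDD 4 (adjusted p = 0.0595 to 0.112), without both DMSO 1 and TCDD 2 (0.158) and with limma-voom (0.0558).

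The abundant ligands did not pass. The gene wnt11 averaged 64.9 ± 9.48 CPM in TCDD and 59.9 ± 7.2 CPM in DMSO (0.12 ± 0.13, adjusted p = 0.643), and wnt5b averaged 32.9 ± 4.67 and 36.0 ± 4.98 CPM (-0.13 ± 0.13, adjusted p = 0.615). Among the less abundant ligands, the largest differences that did not pass were those of wnt9b (0.49 ± 0.40, adjusted p = 0.512), wnt10a (0.47 ± 0.32, adjusted p = 0.42) and wnt4b (-0.41 ± 0.26, adjusted p = 0.38). These 3 genes had at most 4.12 CPM in any library. The ligands wnt4, wnt16, wnt10b, wnt11f2 and wnt2bb, a gene known for starting liver formation in zebrafish, had log2 fold changes of -0.32 to 0.24 with overlapping groups. So did wnt1, wnt3, wnt2ba, wnt7aa and wnt7bb, at -0.23 to -0.09.

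**Figure D2:**
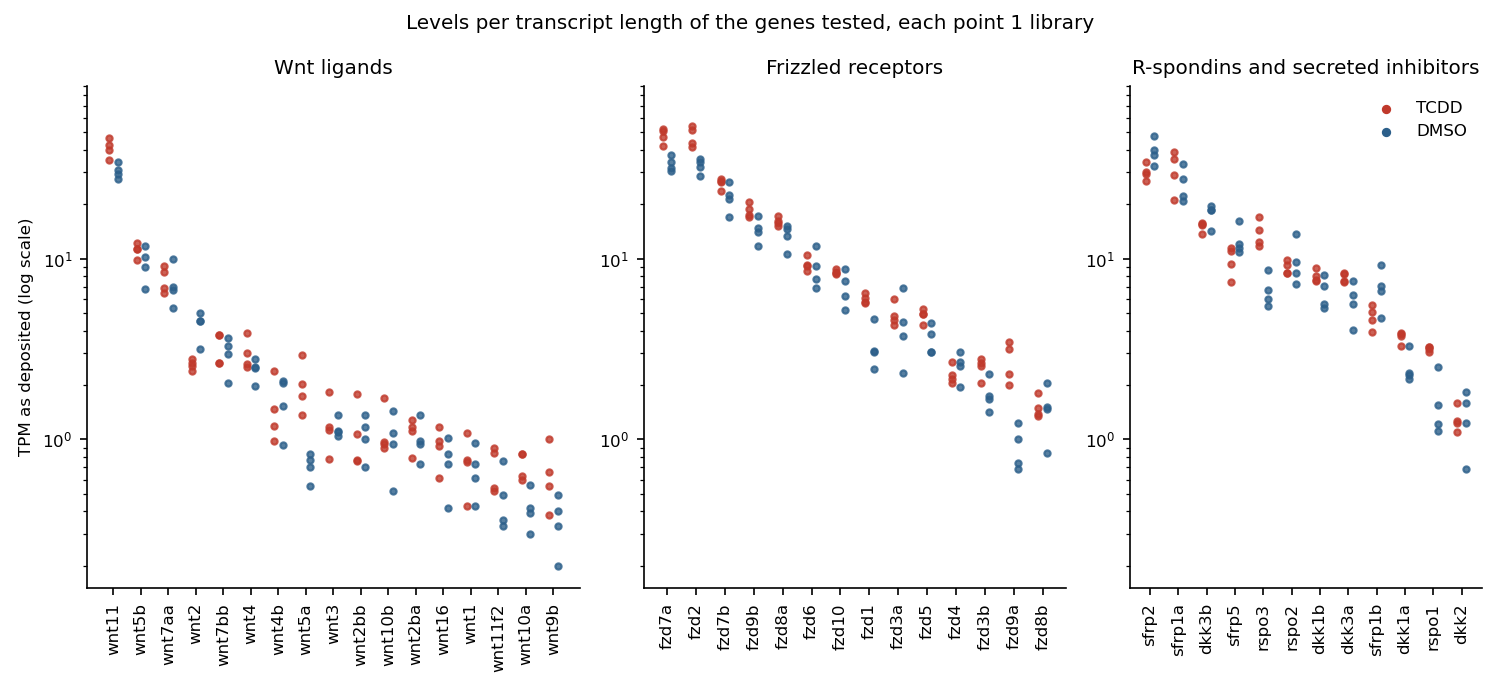
The vertical axis is TPM as deposited, on a log scale, and each point is 1 library, with the ligands, the Frizzled receptors, and the R-spondins with the secreted inhibitors each ordered by their mean over all 8 libraries. The gene wnt11 stands above all other ligands, fzd7a and fzd2 lead the Frizzled receptors, and sfrp2 and sfrp1a lead the last panel.

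All 14 Frizzled receptor genes were tested, and 2 rose, 0 fell and 12 did not pass, where 2.99% of all genes tested rose. The most abundant were fzd7a, a receptor of early embryonic cell movements, at 47.9 ± 4.53 TPM in TCDD and 33.4 ± 3.01 TPM in DMSO, and fzd2 at 47.6 ± 6.07 and 32.7 ± 3.02 TPM. The values of these 2 genes overlapped within each group. As shares of the receptors' summed TPM, fzd7a held 24.1% in TCDD and 22.5% in DMSO, fzd2 23.9% and 22%, and fzd7b 13.2% and 14.6%. On CPM the 3 genes did not pass. The gene fzd7a had 82.8 to 112 CPM in TCDD and 76.9 to 102 CPM in DMSO (0.21 ± 0.12, adjusted p = 0.353), and fzd7b averaged 56.9 ± 3.03 and 58.3 ± 1.34 CPM (-0.04 ± 0.09, adjusted p = 0.854).

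The receptors that rose were less abundant per length, with 2.73 ± 0.703 TPM in TCDD and 0.92 ± 0.255 TPM in DMSO for fzd9a. The gene fzd9a (NCBI gene 557447) had 4.79, 7.21, 6.34 and 3.8 CPM in TCDD 1 to 4, against 2.24, 2.02, 1.82 and 3.07 CPM in DMSO 1 to 4. The groups did not overlap, although TCDD 4 lay close to DMSO 4. The log2 fold change was 1.27 ± 0.24 (adjusted p = 0.012), the largest rise of all Wnt genes tested, and it was called in the 21 alternatives that tested it at the threshold of 0.05, but not at 0.01. The gene fzd1 (NCBI gene 557384) had 8.1, 7.14, 7.34 and 6.63 CPM in TCDD 1 to 4, against 4.79, 5.59, 4.47 and 4.61 CPM in DMSO 1 to 4, with a log2 fold change of 0.58 ± 0.14 (adjusted p = 0.034). Every TCDD library lay above every DMSO library, but the call was lost without any 1 of DMSO 1, DMSO 3, DMSO 4, TCDD 1, TCDD 2 and TCDD 3 (adjusted p = 0.0536 to 0.109) and without both DMSO 1 and TCDD 2 (0.104).

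The receptor fzd4, known for transducing the ligand Norrin in blood vessels, had 10.6, 11, 12.5 and 9.13 CPM in TCDD 1 to 4, against 15, 12.1, 15.4 and 17.7 CPM in DMSO 1 to 4. Only TCDD 3 reached into the DMSO range, and the difference did not pass (-0.47 ± 0.15, adjusted p = 0.085; 0.0343 without DMSO 2). The other receptors fzd3a, fzd3b, fzd5, fzd6, fzd8a, fzd8b and fzd9b had log2 fold changes of -0.23 to 0.26. The gene fzd10 was at 19.3 ± 0.318 CPM in TCDD and 19.3 ± 1.51 CPM in DMSO (adjusted p = 0.993).

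The co-receptor gene lrp5 (NCBI gene 568518), known from human disease for its part in bone mass and retinal vessels, had 44.4, 53.2, 54.6 and 47.8 CPM in TCDD 1 to 4, against 32.2, 42.1, 38.7 and 30.2 CPM in DMSO 1 to 4. No DMSO library reached the TCDD range. The log2 fold change was 0.48 ± 0.13, and its adjusted p of 0.047 lay close to the threshold. The call was lost without any 1 library other than DMSO 2 (adjusted p = 0.0652 to 0.132), without both DMSO 1 and TCDD 2 (0.174), without robust estimation (0.0507) and with offsets for transcript length (0.0686). The paralog lrp6 averaged 28.8 ± 3.44 CPM in TCDD and 24.2 ± 3.3 CPM in DMSO, and did not pass (0.25 ± 0.13, adjusted p = 0.271).

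**Figure D3:**
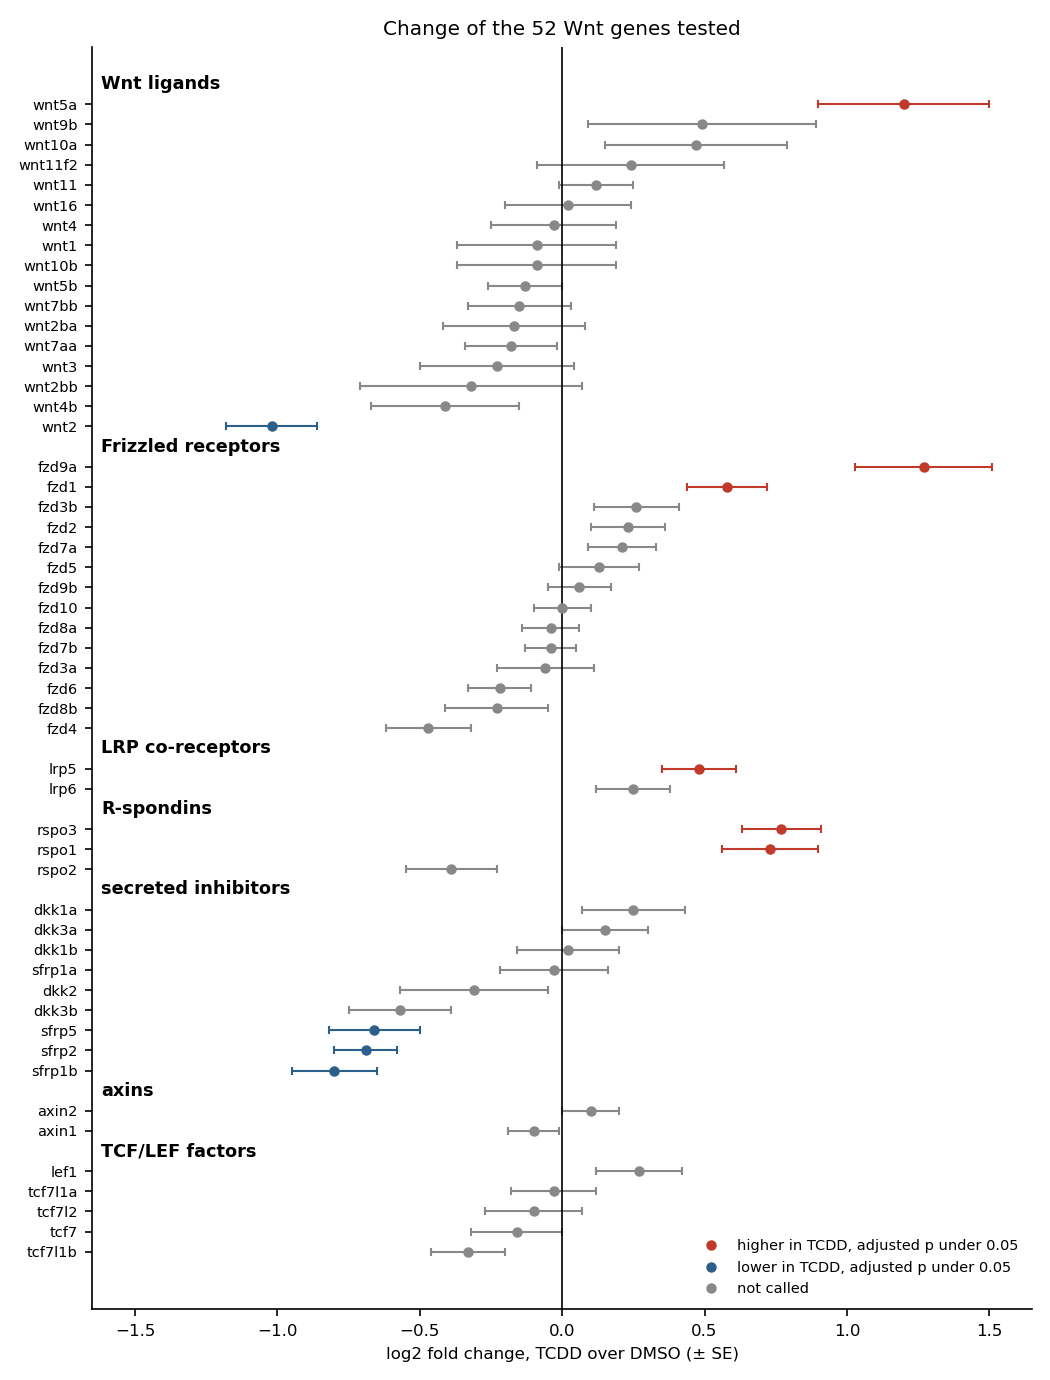
The horizontal axis is the log2 fold change of TCDD over DMSO with its SE for the 52 Wnt genes tested, grouped by role, with coloured points for adjusted p under 0.05. The secreted inhibitors that were called lie left of 0 at -0.80 to -0.66, while 2 of the 3 R-spondins tested, rspo1 and rspo3, lie right of 0 at 0.73 and 0.77.

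Of the 3 R-spondins tested, rspo3 and rspo1 rose and rspo2 did not pass, where 2.99% of all genes tested rose. The gene rspo3 (NCBI gene 100007702), which in the mouse is required for blood vessel development, had 19.3, 27.9, 23 and 18.7 CPM in TCDD 1 to 4, against 13.9, 13.7, 11.5 and 12.9 CPM in DMSO 1 to 4. The groups were well separated, with a log2 fold change of 0.77 ± 0.14 (adjusted p = 0.011), and the call held in the 22 alternatives that kept the threshold of 0.05, but not at a threshold of 0.01. The gene rspo1 (NCBI gene 436625) had 5.81, 6.1, 5.87 and 5.47 CPM in TCDD 1 to 4, against 3.28, 4.58, 3.42 and 2.72 CPM in DMSO 1 to 4. The log2 fold change was 0.73 ± 0.17, with an adjusted p of 0.033. Its TCDD libraries were close together (SD 0.26 CPM), whereas DMSO 2 was higher than the other DMSO libraries. The call was lost without any 1 of DMSO 1, DMSO 3, DMSO 4, TCDD 1, TCDD 2 and TCDD 3 (adjusted p = 0.0559 to 0.0994) and without both DMSO 1 and TCDD 2 (0.12).

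The gene rspo2, known in zebrafish and mouse for its part in skeletal and limb growth, had 3.65, 4.02, 4.13 and 3.35 CPM in TCDD 1 to 4, against 4.95, 5.73, 4.89 and 4.33 CPM in DMSO 1 to 4. All TCDD libraries lay below all DMSO libraries, but the difference did not pass (-0.39 ± 0.16, adjusted p = 0.168; -0.15 with offsets for length). As a share of the R-spondins' summed TPM, rspo3 held 51.8 ± 2.8% in TCDD and 37.3 ± 3.29% in DMSO. The share of rspo2 was 33.8 ± 2.32% in TCDD and 53.2 ± 2.09% in DMSO, so rspo3 was the largest R-spondin in TCDD and rspo2 in DMSO. That order rests on a length of only 504.8 bases implied for rspo2 by its count and FPKM, which was not checked against an annotation. The gene rspo4 had 15 counts over the 4 TCDD libraries and 4 over the 4 DMSO libraries and was not tested.

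Secreted inhibitors held the largest group of falls, with 3 lower, 0 higher and 6 not passing among 9 tested. Over all genes tested, 2.73% fell and 2.99% rose. The gene sfrp2 (NCBI gene 566878), a product of fibroblasts and other mesenchyme, averaged 30 ± 2.98 TPM in TCDD and 39.4 ± 6.27 TPM in DMSO. Its paralog sfrp1a was at 31.1 ± 7.92 and 26 ± 5.79 TPM. The highest mean of the inhibitors was thus that of sfrp2 in DMSO and of sfrp1a in TCDD. While sfrp2 was above sfrp1a in every DMSO library, sfrp1a was above sfrp2 only in TCDD 2 and TCDD 3, so their order in TCDD was not settled. On CPM, sfrp2 had 76, 85.4, 71.2 and 61.8 in TCDD 1 to 4, against 128, 115, 119 and 112 in DMSO 1 to 4. The gap between the groups was wider than the range within either, and the log2 fold change was -0.69 ± 0.11 (adjusted p = 0.0056).

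The gene sfrp1b (NCBI gene 798564) had 5.33, 4.78, 5.6 and 3.8 CPM in TCDD 1 to 4, against 7.75, 9.3, 8.67 and 8.24 CPM in DMSO 1 to 4 (-0.80 ± 0.15, adjusted p = 0.012). The gene sfrp5 (NCBI gene 117510) had 14, 17, 15.7 and 10.2 CPM in TCDD 1 to 4, against 25.2, 23.2, 20.2 and 21.4 CPM in DMSO 1 to 4 (-0.66 ± 0.16, adjusted p = 0.031). For both genes every TCDD library lay below every DMSO library, with TCDD 4 the lowest. The calls of sfrp2 and sfrp1b held without any 1 library. For sfrp5 the adjusted p was 0.054 to 0.0829 when DMSO 3, TCDD 1, TCDD 3 or DMSO 4 was left out, and 0.0618 when libraries were scaled by size alone. On log2(TPM + 0.5), where the median of all genes was 0.26, limma gave -0.38 for sfrp2 (adjusted p = 0.111), -0.46 for sfrp1b (0.145) and -0.35 for sfrp5 (0.202). On that scale limma called 0 Wnt genes lower, with 3 at an unadjusted p under 0.05 (8 with edgeR), where DESeq2 called 5 and limma-voom 4. It called 8 higher, the 6 called by edgeR together with fzd7a (0.51) and fzd2 (0.53).

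The paralog sfrp1a averaged 33.6 ± 9.32 CPM in TCDD and 34.4 ± 4.7 CPM in DMSO and did not pass (-0.03 ± 0.19, adjusted p = 0.944). Of the 5 Dickkopf genes edgeR called 0, with 1 lower at an unadjusted p under 0.05, DESeq2 called 1 (dkk3b) and limma-voom 0. The gene dkk3b, a divergent family member, had 11.7, 11.5, 11.3 and 9.46 CPM in TCDD 1 to 4, against 22.9, 13.5, 16.3 and 12.6 CPM in DMSO 1 to 4 (-0.57 ± 0.18, adjusted p = 0.093; 0.0492 with DESeq2). Its groups did not overlap, and DMSO 1 was above the other DMSO libraries. The co-receptor antagonists dkk1a (3.2 ± 0.337 CPM in TCDD and 2.69 ± 0.401 CPM in DMSO) and dkk1b (4.7 ± 0.626 and 4.65 ± 0.84 CPM) had log2 fold changes of 0.25 ± 0.18 and 0.02 ± 0.18. The genes dkk2 (-0.31 ± 0.26) and dkk3a (0.15 ± 0.15) did not pass either.

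Within the cell, edgeR called 0 of 2 axins and 0 of 5 TCF/LEF factors, as did DESeq2 and limma-voom. At an unadjusted p under 0.05 stood 0 axins and 1 TCF/LEF factor, tcf7l1b (-0.33 ± 0.13, adjusted p = 0.168). The gene axin2, a target of beta-catenin that feeds back on it, had 49.7, 48.1, 45.2 and 39.7 CPM in TCDD 1 to 4, against 39.1, 44.9, 41.9 and 44.4 CPM in DMSO 1 to 4. The groups overlapped, and the log2 fold change was 0.10 ± 0.10 (adjusted p = 0.612). The scaffold gene axin1 gave -0.10 ± 0.09 (adjusted p = 0.597). The gene lef1, both a partner and a target of beta-catenin, averaged 47.9 ± 3.35 CPM in TCDD and 39.7 ± 8.43 CPM in DMSO (0.27 ± 0.15, adjusted p = 0.311), and DMSO 1 was the lowest library at 27.7 CPM. The factors tcf7 (-0.16 ± 0.16), tcf7l2 (-0.10 ± 0.17) and tcf7l1a (-0.03 ± 0.15) did not pass either.

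The remaining 9 Wnt genes were below the filter on low counts, 7 of them ligands. Over all 8 libraries they had 9 to 74 counts each, and none exceeded 1.03 CPM in any library. They were not tested in the main fit. With no filter all 61 Wnt genes were tested, and 6 were called higher and 4 lower, the same genes as in the main fit.

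Several rises and falls left a related gene in place, so the ratio of 2 related Wnt genes was taken within each library, which does not depend on how libraries are scaled. The 16 pairs were chosen after the values were seen, those with rspo2 last, so the ratios are a description and were given no test. The log2 count ratio of wnt5a to wnt5b was -4.38, -3.79, -4.15 and -4.49 in TCDD 1 to 4, against -5.61, -5.51, -5.46 and -5.20 in DMSO 1 to 4, a difference of 1.24. The ratio of fzd9a to fzd9b was -2.34, -1.87, -1.76 and -2.40 in TCDD 1 to 4, against -3.38, -3.38, -3.61 and -2.79 in DMSO 1 to 4. In both pairs every TCDD library lay above every DMSO library.

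For R-spondins, rspo1 to rspo2 was 0.67, 0.60, 0.50 and 0.70 in TCDD 1 to 4, against -0.59, -0.32, -0.51 and -0.66 in DMSO 1 to 4. All TCDD libraries thus held more rspo1 than rspo2 counts and all DMSO libraries fewer. That order holds for counts and not per length. In TPM, rspo2 was above rspo1 in TCDD (8.95 ± 0.745 against 3.18 ± 0.085) and in DMSO (9.7 ± 2.82 against 1.6 ± 0.646). Those TPM rest on the unchecked short length implied for rspo2. The ratio of rspo3 to rspo2 averaged 2.53 ± 0.17 in TCDD and 1.39 ± 0.17 in DMSO, the same difference of 1.14. The groups did not overlap either for sfrp1b to sfrp1a (difference -0.74), dkk3b to dkk3a (-0.68) and tcf7l1b to tcf7l1a (-0.30). They overlapped in the other 9 pairs, among them lrp5 to lrp6, with 0.80, 1.01, 0.83 and 0.55 in TCDD 1 to 4, against 0.57, 0.54, 0.71 and 0.43 in DMSO 1 to 4. Except for tcf7l1b, the first gene of each separated pair was already without overlap in its own CPM. So was rspo2, the second gene of both R-spondin pairs, whose TCDD libraries lay below DMSO (-0.39 ± 0.16, adjusted p = 0.168). Its own difference thus enters both values of 1.14. The separated ratios are therefore not independent of the results for single genes. The share of separated ratios among gene pairs in general was not computed.

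**Figure D4:**
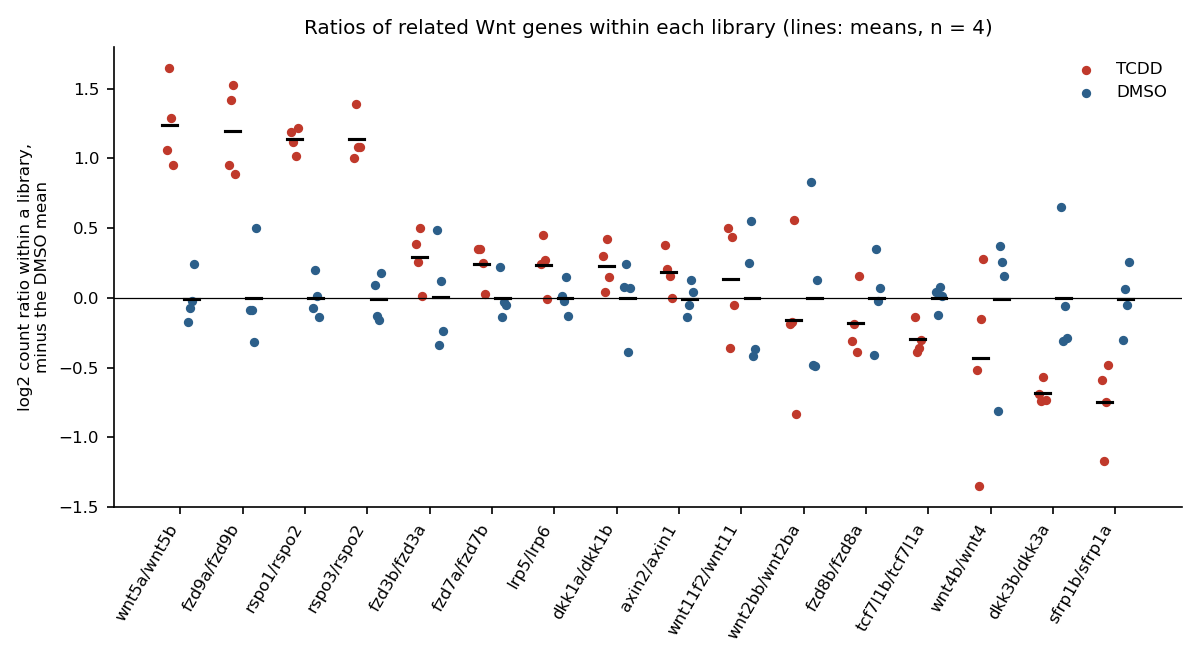
The vertical axis is the log2 ratio of the counts of 2 related Wnt genes within a library, with the DMSO mean of each pair set to 0, each point 1 library and the lines group means (n = 4). The 4 pairs at the left, wnt5a/wnt5b, fzd9a/fzd9b, rspo3/rspo2 and rspo1/rspo2, have TCDD means 1.14 to 1.24 above the DMSO mean, and 9 of the 16 pairs overlap between the groups.

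Other genes of the pathway came from lists of symbols, with 88 of 95 listed genes matched to the files. The lists too were set with earlier results of these data known. Of 84 tested, 3 rose, 4 fell and 77 did not pass, a called share of 8.33%, against 5.72% of all genes. All 3 genes that rose encode inhibitors of the pathway, but other inhibitors on the lists did not rise. Among these, sost (0.21), wif1 (0.10), nkd2b (-0.51) and trabd2a (-0.59) did not pass, and frzb fell. The gene notum1a, encoding a secreted enzyme that removes the lipid from Wnt ligands, had 10.7, 9.63, 12.3 and 10.9 CPM in TCDD 1 to 4, against 4.87, 3.44, 3.63 and 4.05 CPM in DMSO 1 to 4. Its log2 fold change was 1.45 ± 0.15 (adjusted p = 4.8e-04), above that of any of the 52 Wnt genes tested. Its paralog notum1b averaged 23.9 ± 1.76 CPM in TCDD and 15.8 ± 1.7 CPM in DMSO (0.60 ± 0.12, adjusted p = 0.013; 0.0547 without DMSO 3).

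The gene nkd1, whose product binds Dishevelled and dampens the signal, had 55.3, 57.9, 60.1 and 49.3 CPM in TCDD 1 to 4, against 28, 30.7, 32.1 and 29.3 CPM in DMSO 1 to 4 (0.89 ± 0.10, adjusted p = 7.0e-04). The groups were far apart for both notum1a and nkd1, and both calls held in every alternative that tested them, the threshold of 0.01 included.

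The falls were spread over the lists. The gene frzb, a relative of the Sfrp genes with a known role in cartilage, averaged 27.0 ± 1.64 CPM in TCDD and 37.2 ± 4.78 CPM in DMSO (-0.47 ± 0.11, adjusted p = 0.035). The call was lost without any 1 library other than DMSO 1 (adjusted p = 0.058 to 0.117). The Wnt5a receptor gene ror2 averaged 20.2 ± 2.01 and 27 ± 1.69 CPM in TCDD and DMSO (-0.42 ± 0.11, adjusted p = 0.046), and the corepressor gene ctbp2a 29.1 ± 3 and 38.5 ± 2.04 CPM (-0.40 ± 0.10, adjusted p = 0.045). Neither call held without a filter on low counts (adjusted p = 0.0543 for ror2 and 0.0545 for ctbp2a). For ror2 the adjusted p was 0.0562 to 0.146 without any 1 library other than DMSO 1 and TCDD 3, and for ctbp2a 0.0573 to 0.135 without any 1 other than DMSO 1 and TCDD 4. The AP-1 factor gene jun averaged 132 ± 21.2 CPM in TCDD and 227 ± 49.8 CPM in DMSO (-0.79 ± 0.17, adjusted p = 0.020). For jun the adjusted p was 0.0545, 0.0628 and 0.0588 with DMSO 4, TCDD 2 and TCDD 3 left out in turn. When libraries were scaled by size alone, the adjusted p was 0.207 for frzb, 0.217 for ror2 and 0.26 for ctbp2a, and on log2(TPM + 0.5) all 4 falls lost their call (0.0729 to 0.742). Without both DMSO 1 and TCDD 2 the adjusted p was 0.0955 for ror2, 0.0992 for ctbp2a and 0.0806 for jun.

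Among 15 tested genes listed as transcriptional targets of beta-catenin, 2 rose (notum1a and nkd1), 1 fell (jun) and 12 did not pass. The called share was 20%, against 5.72% of all genes, and the median log2 fold change 0.14, against 0.00 over all genes. That share leaves out the targets axin2 and lef1, which were counted among the Wnt genes above and were not called. In the other lists, edgeR, DESeq2 and limma-voom each called 0 of 2 genes of Wnt secretion (wls, -0.14 ± 0.11, adjusted p = 0.51) and 0 of 15 genes of planar cell polarity (daam1a, 0.29 ± 0.12, adjusted p = 0.175). At an unadjusted p under 0.05 edgeR had 0 and 1 of them. Of 22 genes of Dishevelled, the destruction complex and beta-catenin, nkd1 alone was called (4.55%, near the 5.72% of all genes).

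**Figure D5:**
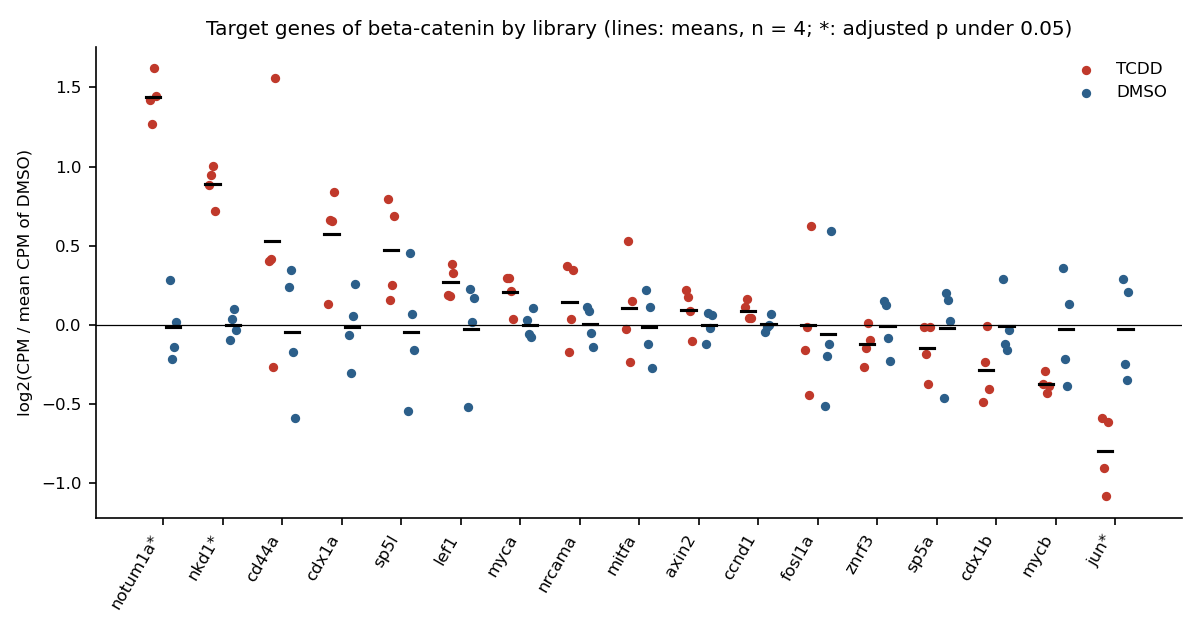
The vertical axis is log2 of the CPM over the mean CPM of DMSO for 15 listed targets of beta-catenin together with axin2 and lef1, each point 1 library and the lines group means (n = 4), and an asterisk marks adjusted p under 0.05. The TCDD libraries of notum1a and nkd1 lie above all DMSO libraries, those of jun lie below, and the groups overlap for axin2, lef1 and the other 12 targets.

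Summed markers were separated between the same libraries for some cell types and overlapped for most. The 11 cartilage markers summed to 6440 to 7780 CPM in TCDD and 8430 to 11700 CPM in DMSO, with 10 of 11 called lower, and erythrocyte markers (2750 to 4040 and 4190 to 6430 CPM) and intestine markers (1730 to 1950 and 2380 to 2600 CPM) were also separated. Each of these 3 lists had an exact two-sided permutation p of 0.0286, the smallest that 4 against 4 samples allow, and an adjusted p of 0.105 over 11 lists. The 10 cartilage markers called had log2 fold changes of -1.05 to -0.54, while matn4 was at 0.22 and was not called. The called genes sfrp2, sfrp1b, sfrp5 and frzb lay at -0.80 to -0.47, the called ligand wnt2 at -1.02. The paralog sfrp1a, which was not called, lay at -0.03. Summed skin markers were 10100 to 14300 CPM in TCDD and 13400 to 16800 CPM in DMSO, and the epicardial and fibroblast list of the heart 307 to 376 and 353 to 429 CPM. Bone markers summed to 550 to 734 and 725 to 817 CPM. The groups overlapped in these lists, and also in the sums for cardiomyocytes, liver, endothelium, skeletal muscle and neurons. The log2 ratios of these sums were -0.15, -0.06, -0.10, 0.01 and 0.17 in that order. Of 13 skeletal muscle and 10 neuron markers tested, 0 were called. Single markers called outside the cartilage list included myl7 (-0.99) and myh7 (-0.48) of the 10 cardiomyocyte markers. The remaining cardiomyocyte markers lay at -0.68 to 0.16 and were not called. Of 6 epicardial and fibroblast markers tbx18 rose (0.67), while the others lay at -0.81 to -0.12 and were not called. Called too were ifitm5 (-1.09) of 7 bone markers tested and tek (-1.16) of 9 endothelial markers. The remaining bone markers lay at -0.73 to -0.10 and the remaining endothelial markers at -0.36 to 0.21, and none was called. Among 12 skin markers 2 rose (agr1, 1.26, and evpla, 1.06) and 3 fell (krt15, -2.40, krtt1c19e, -1.49, and cyt1l, -1.18). In the liver list cp rose (0.97), while its other markers tested lay at -0.89 to 0.41 and were not called. Of the markers tested, 2 of 7 for erythrocytes and 3 of 8 for intestine fell. No marker of these lists was at 0 in every library, and the part of these cell types in the changes of Wnt genes was not tested.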

How the data were processed

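Bulk RNA was sequenced from 4 TCDD and 4 DMSO samples of zebrafish larvae labelled as heart, with total RNA from Trizol and a SMARTER mRNA-Seq library kit, per the labels' protocols. Bowtie2 and the genome GRCz11 are listed, per the submitters' processing notes, while quantifier and annotation were not found in the labels or headers. The deposited values per gene and library are an estimated count (some are not whole) with no normalization, and the authors' TPM and FPKM, per the file headers and values. Of all genes 11.43 to 11.98% had a fractional count, but none of the 61 Wnt genes did.

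Rounded counts of all 8 libraries entered edgeR's robust quasi-likelihood F-test (version 4.0.16, R 4.3.3) with treatment as the only term, after filterByExpr and TMM scaling, with Benjamini-Hochberg adjustment over all 20522 genes tested. Each SE was derived from the fold change and F. The steps were checked on simulated counts. Single-gene CPM rest on TMM-scaled sizes and marker sums on library size alone. Transcript length was implied by count and FPKM. Ratios of related genes used counts plus 0.5. The other tools were limma 3.58.1, DESeq2 1.42.0, Python 3.11.15, pandas 2.3.3, SciPy 1.17.1 and matplotlib 3.10.9. No 2 libraries were copies (lowest chi-square per degree of freedom 9.53).

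The Wnt genes, gene lists and tests were chosen with earlier results of these data known. Named genes were all called ones, a list set by symbol, the most abundant gene of each role, the 5 largest changes that were not called, and, of other pathway genes, those called or with the smallest p of a list. Other genes, such as fzd2, tcf7l1b, dkk2, dkk3a and single cell type markers, were named after their values were seen. Alternatives were other tools, scalings, filters and thresholds, the replicate block, offsets for length, TPM, and libraries left out. Synonyms came from a RefSeq table of a different assembly, so no coordinates are given.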

Additional observations from a re-analysis of the deposited data

Results flagged for a closer look

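Among 110 groups of 4 libraries examined for a single library far from the others, 2 were flagged, and chance flags about 1 in 20. The ligand gene wnt10b was at 1.67 CPM in TCDD 4, against 0.934 to 1.04 CPM in the other TCDD libraries. The inhibitor gene dkk1a was at 2.7 CPM in TCDD 4, against 3.33 to 3.44 CPM in the other TCDD libraries. Neither gene was called changed.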

How the results depend on the processing

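The counts of Wnt genes called (6 higher, 4 lower) became 2 and 2 with a mean of at least 10 CPM, which left 24 of them tested, 0 and 2 at an adjusted p of 0.01, and 2 and 4 without both DMSO 1 and TCDD 2. No Wnt gene was called lower on log2(TPM + 0.5) or log2(TPM + 0.1). Without 1 library in turn the counts were 2 to 5 higher and 3 to 5 lower, and 2 higher without DMSO 1, DMSO 3, DMSO 4, TCDD 1, TCDD 2 or TCDD 3. Such fits have fewer samples. Same-numbered samples did not deviate together throughout (correlations -0.293, -0.217, 0.094 and 0.277 for numbers 1 to 4). The highest correlation of TCDD 1 to 4 with a DMSO sample of another number was 0.191, 0.52, 0.022 and 0.138. For numbers 3 and 4 the same-numbered value was the higher. No label pairs the samples, so the numbers were not taken to pair them in the main fit. With the replicate number as a block, 5 Wnt genes were higher and 4 lower (fzd1 at adjusted p = 0.0505), and of other pathway genes 3 were higher and 2 lower (ror2 at 0.0521 and ctbp2a at 0.0625).

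Over all genes (614 higher, 560 lower) the counts were 937 and 1050 with DESeq2, 937 and 372 with library size alone (71.6% higher, against 52.3%), 1382 and 186 on log2(TPM + 0.5) (88.1% higher), 1325 and 176 on log2(TPM + 0.1), 338 and 278 without both DMSO 1 and TCDD 2, 191 and 136 at 0.01, and 995 and 1075 at 0.1. They ranged from 294 to 682 higher and from 229 to 1172 lower without 1 library in turn. Other pathway genes called higher (3) became 5 with DESeq2, 6 on either TPM scale and 5 at 0.1. Those called lower (4) became 1 with library size alone, 2 with no filter, 0 on either TPM scale, 1 without both DMSO 1 and TCDD 2 and 0 at 0.01. Without 1 library in turn they ranged from 2 to 4 higher and from 0 to 4 lower.

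Signs changed only for genes that were not called. The log2 fold change became positive with library size alone for wnt5b (0.0022), wnt4 (0.11), wnt10b (0.03), sfrp1a (0.10), fzd7b (0.09), axin1 (0.03) and tcf7l2 (0.02). On log2(TPM + 0.5) and log2(TPM + 0.1) it was 0.26 and 0.27 for wnt5b, 0.24 and 0.28 for wnt4, 0.01 and 0.0025 for wnt2bb, 0.13 and 0.19 for wnt10b, 0.24 and 0.25 for sfrp1a, 0.27 in both for fzd7b, 0.21 and 0.22 for axin1, 0.14 and 0.16 for tcf7, 0.20 and 0.21 for tcf7l2 and 0.17 and 0.18 for wls, with medians of all genes at 0.26 and 0.31. It was 0.04 for sfrp1a and -0.06 for fzd10 with offsets for length, -0.01 and -0.00037 for fzd10 with upper quartile factors and with 1 CPM in 4 samples, and 0.11 for wnt2bb and -0.02 for dkk1b and fzd10 without both DMSO 1 and TCDD 2. The log2 ratio of summed skeletal muscle markers was -0.14 with TMM-scaled sizes. Without 1 library in turn the log2 fold change ranged from -0.20 to 0.12 for wnt4, -0.08 to 0.09 for wnt16, -0.32 to 0.0014 for wnt10b, -0.08 to 0.11 for dkk1b, -0.18 to 0.14 for sfrp1a, -0.05 to 0.04 for fzd10 and -0.22 to 0.01 for tcf7l2, and the log2 ratio of summed markers from -0.17 to 0.11 for liver, -0.11 to 0.11 for skeletal muscle and -0.02 to 0.39 for neurons. The cause of these changes was not tested.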
